A study of Danio rerio with 8 samples.

Results

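Potassium channels let potassium ions out of or into cells along their gradient, and so set the resting potential, end action potentials and carry potassium across epithelia. Voltage-gated channels open on depolarisation, inward rectifiers and two-pore channels hold the membrane near rest, and calcium- or sodium-activated channels shape firing after ions have entered. Silent and auxiliary subunits form no channel alone but alter the channels they join. *fmr1* encodes FMRP, an RNA-binding protein absent in Fragile X syndrome, and in rodents FMRP is known to bind, or to act on the mRNA of, several potassium channels of neurons.

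The potassium channel genes described here are the zebrafish genes whose symbol begins with kcn and whose count exceeded 1 in at least 4 of the 8 RNA-seq libraries. Of 128 such symbols in the count table, 126 genes passed, among 23567 genes kept of 32057 in all. The 2 genes that did not pass were *kcns3b*, with 1 count in each of the mutant clutches S2 and S4 and none elsewhere, and *kcnj20*, with 1 count in each of the wild type clutches A and G and none elsewhere. Just inside the limit, with more than 1 count in exactly 4 libraries, lay *kcnj12a*, *kcnk13b*, *kcnh6b*, *kcnj2b* and *kcnk3a*, with 12 to 21 counts summed over all libraries. In 114 of the 126 genes all 8 libraries had more than 1 count. The genes lay on all of 25 numbered chromosomes, with 10 each on Chromosome 2 and Chromosome 18, the most of any.

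Each library came from 1 clutch of pooled whole embryos at 2 days post fertilisation (dpf), and each clutch had its own pair of parents. Mutant embryos had 2 copies of the *fmr1* hu2787 allele, which carries a premature stop codon (genotype fmr1h2787/h2787 in the sample labels), and made up 4 clutches named S2, S4, S5 and S8. Wild type embryos, with no mutant *fmr1* allele, made up the other 4, named A, D, G and L. Both genotypes descended from 1 imported population, in which the w2 allele of *mitfa* (*nacre*) was also present, and some clutches of the experiment carried it. Genotype was the same for every embryo of a clutch, so the effect of the mutation cannot be told apart from that of other alleles inherited with it. In pooled whole embryos, fewer cells of a type and less RNA per cell cannot be told apart either.

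Values are CPM, counts scaled by library size with TMM normalisation factors, in the order S2, S4, S5, S8 for mutant clutches and A, D, G, L for wild type clutches unless clutches are named. The libraries held 29726950 to 31122824 counts in mutant clutches and 29296538 to 33205738 counts in wild type clutches. *fmr1* itself was at 19.8, 23.4, 22.8 and 19.5 CPM in mutant clutches, against 54.2, 49.98, 48.1 and 47.1 CPM in wild type clutches, so every library matched its label. Markers of neurons, skeletal muscle, heart, ionocytes, hair cells, glia, melanophores, retina and pronephros were all detected, the cell types that whole embryos hold. S2 and S4 resembled each other more closely than other mutant clutches did. Clutch S5 stood apart for the potassium channel genes, as given below, and had the lowest normalisation factor of the 8 (0.891, against 1.04 to 1.12 in the other mutant clutches and 0.904 to 1.05 in wild type clutches). By chi-square per gene between whole libraries, a distance without direction, S5 was nearest to the wild type clutches L (24.1) and G (26.7). It was farther from the mutant clutches S8 (47.3), S2 (54.4) and S4 (67.6). Nearness to a wild type clutch was not particular to S5. S8 was also nearest to G (41.9), and S2 (35.4) and S4 (34.5) were nearer to G than to S5 or S8.

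No potassium channel gene differed between genotypes at an adjusted *p* under 0.05 (edgeR quasi-likelihood test, Benjamini-Hochberg adjustment over all genes tested). The smallest adjusted *p* was 0.528, in a comparison where 3 of 23567 genes (0.0127%) passed in all, and DESeq2 also gave 0 potassium channel genes. At an unadjusted *p* under 0.05 there were 6 genes, *kcnk4a*, *kcnh8*, *kcnj12b*, *kcnc1b*, *kcnj11l* and *kcnma1b*, all higher in mutant clutches. They made up 4.76% of the potassium channel genes, beside 9.41% of all genes tested in either direction. By direction, the background was 4.22% of all genes higher and 5.19% lower in mutant clutches, so the share of potassium channel genes that were higher was close to that of all genes, and the count that were lower was 0. In 4 genes, *kcnk4a*, *kcnh8*, *kcnj12b* and *kcnf1b*, all mutant clutches lay above all wild type clutches (3.17%, beside 4.28% of all genes in either direction and 1.78% of all genes that were higher in mutant clutches). *kcnf1b*, a silent subunit, was named after its values were seen.

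The fitted fold changes leaned upwards. The log2 fold change, mutant over wild type, was above 0 in 95 of 126 genes (75.4%), beside 53.1% of all genes tested, and its median was 0.26, beside 0.02. Genes at low levels leaned upwards over the whole table too. Among genes averaging under 1 CPM the median was 0.45 for 51 potassium channel genes and 0.23 for all 5285 genes, and among genes at 1 CPM or more it was 0.17 for 75 potassium channel genes and -0.0026 for all 18282 genes. These medians describe 126 genes measured in the same 8 clutches, and no test was made of them.

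**Figure D1:**
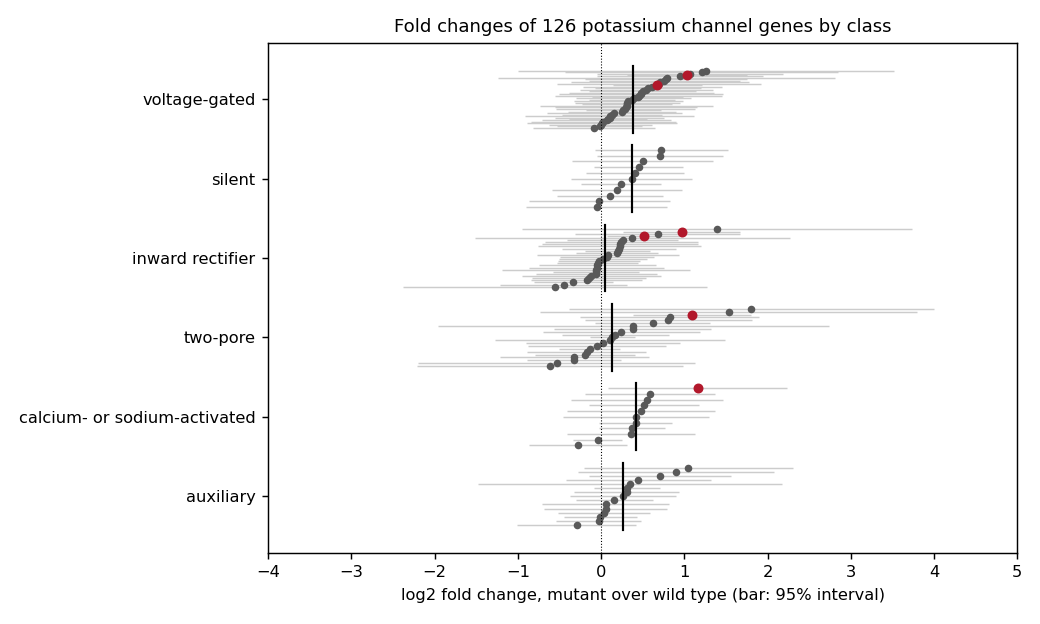
Log2 fold change of each of 126 potassium channel genes, mutant over wild type clutches (horizontal axis), in 6 classes from top to bottom; each point is a gene, red where its unadjusted p was under 0.05, grey bars are 95% intervals and black lines are class medians. The medians of the voltage-gated, silent and calcium- or sodium-activated classes lie at 0.38, 0.37 and 0.42, and those of the inward rectifiers and two-pore channels at 0.05 and 0.14.

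The upward lean was carried by 3 of the 4 mutant clutches. The summed level of all 126 genes was 384, 395, 280 and 363 CPM in S2, S4, S5 and S8, against 296, 297, 316 and 310 CPM in A, D, G and L. S5 thus lay below every wild type clutch and the other mutant clutches above every one of them. As a share of each library's counts, without TMM factors, the genes took 0.0430%, 0.0438%, 0.0250% and 0.0377% in mutant clutches, against 0.0282%, 0.0311%, 0.0305% and 0.0280% in wild type clutches, again with S5 lowest and the other mutant clutches highest. For the median gene, the log2 level relative to the wild type mean was 0.50 in S2, 0.51 in S4, -0.21 in S5 and 0.23 in S8. The wild type clutches lay between -0.01 and 0.04, but they make up that mean. Their values are thus partly held near 0 by construction and do not measure the wild type spread.

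S5 had the lowest level of the 4 mutant clutches in 78 genes (61.9%, beside 29.7% of all genes) and the lowest of all 8 in 38 (30.2%, beside 11.4%). In no potassium channel gene was it the highest of all 8, where S2 was in 45 and S4 in 31. Without S5, 23 genes had an unadjusted *p* under 0.05 (18.3%, beside 19.5% of all genes tested), none had an adjusted *p* under 0.05 and the smallest adjusted *p* was 0.0767. Of these, 22 were higher in mutant clutches (17.5%, beside 8.07% of all genes) and 1, the two-pore channel *kcnk5a*, was lower (0.794%, beside 11.4%). S5 was singled out here for its low levels in these same genes. Leaving it out raises the mutant level of most of them by construction, so the shares by direction follow in part from that choice. Also without S5, 20 of 126 genes did not overlap between genotypes, 19 higher and 1 lower in mutant clutches. This was a smaller share than the 19.2% of all genes in either direction. The median log2 fold change without S5 was 0.40. Summed markers of skeletal muscle were higher in S5 (39573 CPM) than in S2, S4 and S8 (29448 to 31478 CPM), against 18886 to 47433 CPM in wild type clutches. Those of heart (163 CPM, against 95.1 to 137 CPM in the other mutant clutches and 117 to 133 CPM in wild type clutches) and of melanophores (1352 CPM, against 957 to 1018 CPM in the other mutant clutches and 779 to 1217 CPM in wild type clutches) were highest of all 8 in S5. So was each single marker of these lists except *nppa* and *tyr*. The heart marker *nppa* (32.8 CPM in S5) was higher in A and D (38.6 and 36.4 CPM). The melanophore marker *tyr* (39.0 CPM in S5) was higher in S2 and A (42.3 and 51.0 CPM). The 3 hair cell markers split: *pvalb9*, the most abundant, was highest of all 8 in S5 (288 CPM), *otofb* was lowest of all 8 there (7.55 CPM) and *myo6b* lowest of the mutant clutches (6.04 CPM). The 2 retina markers summed to 196, 231, 125 and 122 CPM in mutant clutches, against 82.1, 86.0, 172 and 192 CPM in wild type clutches. S2 and S4 were highest, S2 only narrowly above L, and S8 rather than S5 was the lowest mutant clutch. The sum was mostly *crx*. In *gnat2* S4 was highest (43.5 CPM), but S2 (6.20 CPM) lay below S8, G and L (7.56, 7.19 and 7.66 CPM). The part of these differences in the potassium channel levels was not tested.

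Many of these channels act in neurons, so the 9 neuronal markers were set beside them. Their summed level was 1580, 1678, 1487 and 1657 CPM in mutant clutches, against 1477, 1495, 1630 and 1740 CPM in wild type clutches. S5 was again the lowest of the mutant clutches, but the wild type range enclosed the mutant range, no marker had an unadjusted *p* under 0.05 and the median log2 fold change was 0.14. The sum holds markers that went different ways. *elavl3*, found from the birth of neurons, was at 320, 296, 271 and 251 CPM in mutant clutches, against 440, 434, 312 and 265 CPM in wild type clutches, with A and D highest (log2 fold change -0.35). *syt1a*, of synaptic vesicles, was at 121, 156, 91.2 and 125 CPM in mutant clutches, against 63.9, 70.9, 110 and 123 CPM in wild type clutches (log2 fold change 0.43), and *snap25b*, of synaptic release, at 68.1, 96.6, 49.9 and 77.5 CPM in mutant clutches, against 37.0, 36.8, 69.2 and 85.6 CPM in wild type clutches (0.36). In both synaptic genes S5 was the lowest mutant clutch, A and D were low and G and L high, as in several channel genes below. S5 was also the lowest mutant clutch in *elavl4*, *snap25a*, *sncb* and *syn2a*. It was the highest mutant clutch in *stmn1b* (344, 351, 403 and 354 CPM in mutant clutches) and *gap43* (135, 135, 158 and 153 CPM). The choice of *elavl3*, *syt1a* and *snap25b* was made on their values. The part of neuronal content in the channel levels was not tested.

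The voltage-gated pore subunits (kcna, kcnb, kcnc, kcnd, kcnh and kcnq, 40 genes) summed to 130, 133, 73.8 and 99.0 CPM in mutant clutches, against 83.0, 87.7, 88.7 and 85.0 CPM in wild type clutches. The wild type clutches lay close together and the mutant clutches spread on both sides of them. Of the 40 genes, 2 had an unadjusted *p* under 0.05 (5%, beside 9.41% of all genes tested), both higher, and 37 had a log2 fold change above 0. All 7 kcna genes (shaker channels, median 0.70) and all 6 kcnc genes (fast repolarising channels, median 0.47) had one, as did 7 of 8 kcnq genes (M-current and related channels, median 0.40) and 11 of 13 kcnh genes (EAG, ERG and ELK channels, median 0.31).

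**Figure D2:**
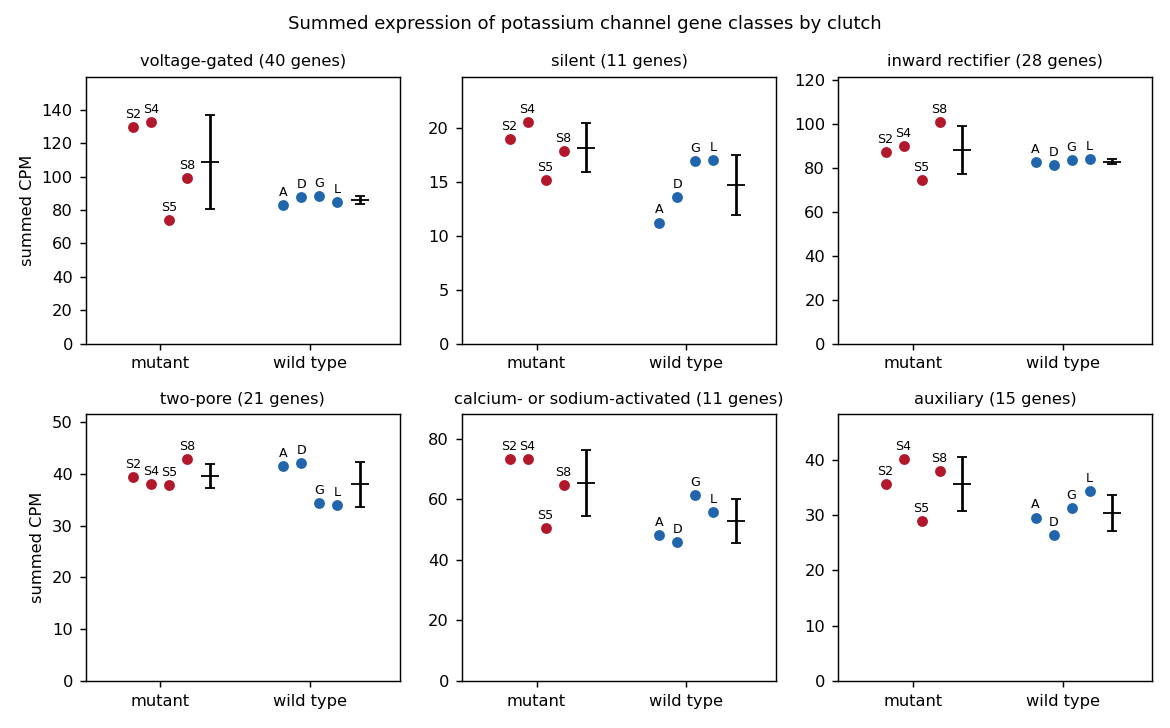
Summed CPM (vertical axes, from 0) of the genes of each of 6 classes in each clutch, mutant left and wild type right; black marks are the mean and SD over 4 clutches. In the voltage-gated panel S5, at 73.8 CPM, lies below all wild type clutches and S2, S4 and S8 lie above them.

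*kcnh8*, an ELK-type voltage-gated channel, was at 1.23, 0.819, 0.626 and 1.19 CPM in mutant clutches, against 0.417, 0.576, 0.437 and 0.453 CPM in wild type clutches. The genotypes did not overlap, though S5 and D lay close together. The log2 fold change was 1.03 ± 0.33 (SE, n = 4 clutches each, edgeR unadjusted *p* = 0.00944, adjusted *p* = 0.528), and between 0.90 and 1.19 with 1 clutch left out. Its counts were low, 17 to 43 in mutant clutches and 12 to 20 in wild type clutches.

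*kcnc1b*, a copy of the Kv3.1 channel that lets neurons fire fast, was at 4.45, 4.06, 2.28 and 3.51 CPM in mutant clutches, against 2.54, 2.19, 2.34 and 1.89 CPM in wild type clutches. Clutch S5 lay among the wild type clutches and the other mutant clutches above them. The log2 fold change was 0.68 ± 0.24 (SE, edgeR unadjusted *p* = 0.0184, adjusted *p* = 0.528), and without S2 it was 0.56 with an unadjusted *p* of 0.0606. The other copy, *kcnc1a*, was at 23.8, 25.4, 17.6 and 21.8 CPM in mutant clutches, against 10.7, 11.3, 23.1 and 20.2 CPM in wild type clutches. Here the wild type clutches fell into a low pair, A and D, and a high pair, G and L, that reached into the mutant range (log2 fold change 0.44 ± 0.25, unadjusted *p* = 0.102).

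*kcnd2*, which encodes Kv4.2, a main A-type channel of dendrites in mammals, showed the same split within the wild type. It was at 9.99, 12.8, 7.73 and 9.87 CPM in mutant clutches, against 5.49, 6.13, 9.87 and 9.78 CPM in wild type clutches, so the genotypes overlapped (log2 fold change 0.37 ± 0.23, unadjusted *p* = 0.140). Over all potassium channel genes, A and D both lay above G and L in 35 (27.8%) and both below in 38 (30.2%), beside 30.3% and 31.0% of all genes tested.

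*kcna7*, a shaker channel known from mammalian muscle and heart, had the highest level per kb of gene length of the voltage-gated class, 5.47 ± 1.30 CPM per kb in mutant clutches and 4.55 ± 0.34 in wild type clutches (SD, n = 4 each). Its CPM were 5.51, 5.94, 3.87 and 3.73 in mutant clutches, against 4.11, 3.71, 3.72 and 4.30 in wild type clutches. S2 and S4 lay above the wild type range and S5 and S8 within it. *kcnh6a*, the ERG channel of the zebrafish heart, whose mutants have irregular heartbeats, was at 3.07, 2.67, 3.90 and 3.79 CPM in mutant clutches, against 2.86, 3.97, 2.94 and 2.91 CPM in wild type clutches. Its log2 fold change was 0.08, with a 95% interval from -0.39 to 0.55, and S5 was here the highest mutant clutch.

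*kcnq1.2*, a KCNQ1 channel, varied most within a genotype. It had 9, 18, 1 and 3 counts in mutant clutches, against 13, 1, 2 and 1 in wild type clutches, and S2, S4 and A stood above all others. The log2 fold change of 0.79 had an SE of 0.91, and it was -0.0037 without S4 and 2.37 without A (unadjusted *p* = 0.408, from 0.0320 without A to 0.998 without S4).

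The silent subunits (kcnf, kcng, kcns and kcnv, 11 genes) summed to 19.0, 20.6, 15.2 and 17.8 CPM in mutant clutches, against 11.2, 13.6, 16.9 and 17.0 CPM in wild type clutches. None had an unadjusted *p* under 0.05, and 9 of 11 had a log2 fold change above 0. Highest per kb was *kcns3a*, whose mammalian counterpart modifies Kv2 channels, at 3.99, 3.79, 2.69 and 4.66 CPM in mutant clutches, against 1.96, 3.22, 3.28 and 2.60 CPM in wild type clutches. S5 lay within the wild type range and the other mutant clutches above it (log2 fold change 0.45 ± 0.24, unadjusted *p* = 0.0917, from 0.0313 without S5 to 0.227 without A). *kcnf1b* was at 1.18, 1.58, 1.21 and 1.22 CPM in mutant clutches, against 0.482, 0.518, 1.06 and 1.13 CPM in wild type clutches. S2 and L were nearly level, so the genotypes were separated by a narrow gap (log2 fold change 0.71 ± 0.34, unadjusted *p* = 0.0651).

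The inward rectifiers (kcnj, 28 genes) did not lean upwards as the voltage-gated genes did: 15 had a log2 fold change above 0, and the median was 0.05. Of the 13 below 0, 5 belonged to an array of 6 similar KCNJ1 genes described below. The difference between the classes was not tested. Their summed level was 87.3, 89.8, 74.2 and 101 CPM in mutant clutches, against 82.4, 81.3, 83.2 and 83.9 CPM in wild type clutches. S5 was the lowest of all 8 and the other mutant clutches were above the wild type. There were 2 genes with an unadjusted *p* under 0.05 (7.14%, beside 9.41% of all genes tested), both higher.

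*kcnj12b*, a strong inward rectifier of the Kir2 group, which holds muscle and nerve cells at rest, was at 5.17, 6.85, 3.57 and 4.28 CPM in mutant clutches, against 2.15, 1.32, 3.50 and 3.21 CPM in wild type clutches. The gap between S5 and G was small beside the spread within either genotype. Its log2 fold change was 0.97 ± 0.32 (SE, edgeR unadjusted *p* = 0.0119, adjusted *p* = 0.528), and between 0.77 and 1.16 with 1 clutch left out.

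*kcnj11* and *kcnj11l* encode Kir6.2-type pores of the ATP-sensitive channel, which couples metabolism to excitability. *kcnj11l* was at 13.1, 10.5, 6.44 and 11.3 CPM in mutant clutches, against 6.97, 6.56, 7.84 and 7.44 CPM in wild type clutches. S5 was the lowest of all 8 clutches, and the other mutant clutches lay above every wild type clutch. For this gene the log2 fold change was 0.52 ± 0.21 (SE, edgeR unadjusted *p* = 0.0282, adjusted *p* = 0.528). It was 0.69 with an unadjusted *p* of 0.000829 without S5, and the unadjusted *p* was 0.0928 without S2, 0.0528 without S4, 0.0604 without S8, 0.0578 without A and 0.0647 without D. *kcnj11* had the highest level per kb of all 126 genes, 6.62 ± 0.37 CPM per kb in mutant clutches and 5.78 ± 1.13 in wild type clutches (SD, n = 4 each). Its 7.55, 8.19, 7.40 and 7.20 CPM in mutant clutches, against 6.74, 4.78, 7.22 and 7.74 CPM in wild type clutches, overlapped, with D apart at the low end.

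*kcnj13*, in which mutations disturb the stripe pattern of zebrafish (*jaguar*/*obelix*), was at 17.6, 12.2, 12.1 and 15.02 CPM in mutant clutches, against 21.2, 15.5, 13.3 and 9.25 CPM in wild type clutches. The wild type range enclosed the mutant range. Its log2 fold change was -0.06 (95% interval -0.57 to 0.46), and it turned to 0.02, 0.01 and 0.17 without S4, S5 and A.

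A tandem array on Chromosome 18 held 6 genes named for KCNJ1 (ROMK), the potassium secretory channel that marks one kind of skin ionocyte in zebrafish. Together they were at 9.73, 18.1, 21.1 and 32.7 CPM in mutant clutches, against 15.9, 23.4, 22.2 and 27.6 CPM in wild type clutches. S2 was the lowest and S8 the highest of all 8 clutches, an order unlike that of the other channel genes. Of the 6 genes, 1 had a log2 fold change above 0, the median was -0.13 and none had an unadjusted *p* under 0.05. The 7 ionocyte markers summed to 214, 255, 251 and 306 CPM in mutant clutches, against 258, 279, 274 and 284 CPM in wild type clutches, again with S2 lowest and S8 highest. They were listed for ionocytes as a whole and not for the kind that KCNJ1 marks. Single markers differed in this order. S2 was lowest and S8 highest of all 8 in *atp1b1b* and *slc12a10.2*. S8 was lowest of all 8 in *foxi3a* (6.75, 5.73, 7.80 and 4.73 CPM in mutant clutches), and S5 in *atp6v1aa*, the most abundant (138, 152, 135 and 152 CPM). The part of ionocytes in the array's levels was not tested. The copies resemble and in part overlap each other, so the division of reads among them is uncertain. Without them, the median log2 fold change of the remaining 120 genes was 0.31.

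The two-pore channels (kcnk, 21 genes) carry the background leak of potassium. They summed to 39.3, 38.1, 37.9 and 42.9 CPM in mutant clutches, against 41.5, 42.1, 34.4 and 34.1 CPM in wild type clutches, and here S5 was level with S4. A log2 fold change above 0 was found in 13 of 21 genes, and 1 gene had an unadjusted *p* under 0.05 (4.76%, beside 9.41% of all genes tested).

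That gene, *kcnk4a*, had the smallest *p* of all 126 and was the only one on Chromosome 14, the chromosome of *fmr1*, where it lay 11.4 Mb away (GRCz11, chr14:8710568-8755197). It encodes a TRAAK-type channel, which in mammals opens on membrane stretch. It was at 0.689, 1.001, 0.663 and 0.675 CPM in mutant clutches, against 0.321, 0.432, 0.281 and 0.377 CPM in wild type clutches. The genotypes were well apart, and S4 stood above the other mutant clutches, which were nearly equal. The log2 fold change was 1.09 ± 0.32 (SE, edgeR unadjusted *p* = 0.00636, adjusted *p* = 0.528), and between 0.94 and 1.22 with 1 clutch left out. The counts were 24, 33, 18 and 21 in mutant clutches, against 10, 15, 9 and 10 in wild type clutches, so each value rests on few reads.

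**Figure D3:**
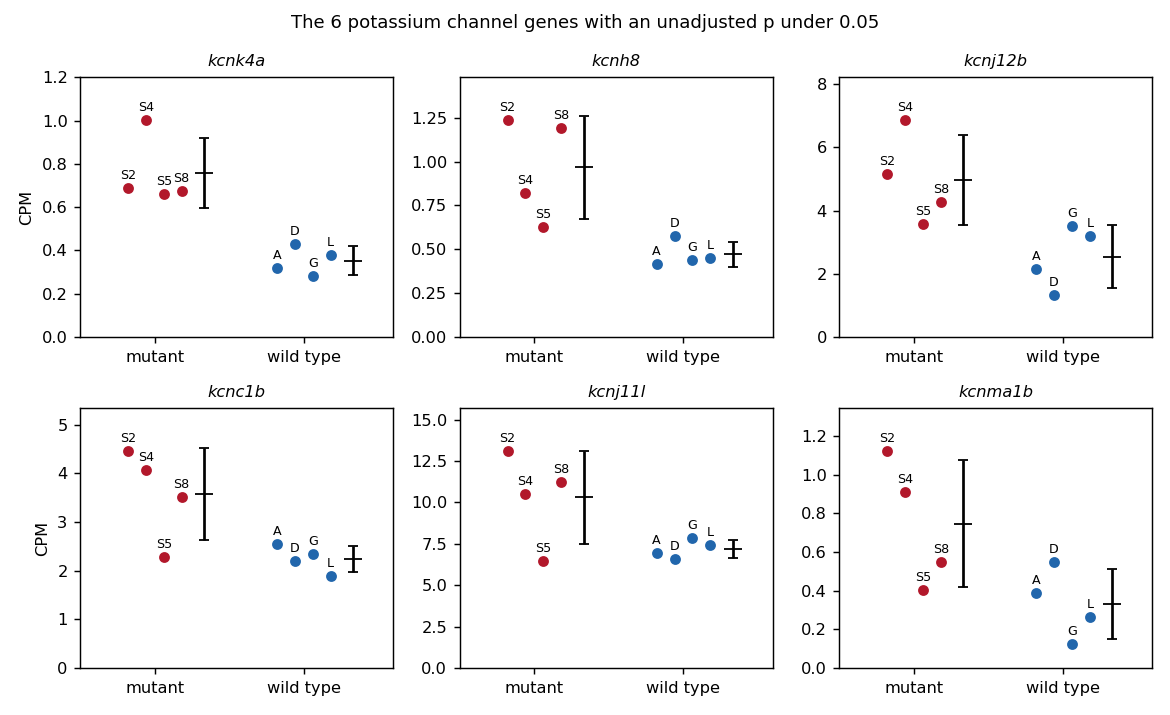
CPM (vertical axes, from 0) in each clutch of the 6 genes with an unadjusted p under 0.05, mutant left and wild type right; black marks are the mean and SD over 4 clutches. The genotypes are separate in kcnk4a, kcnh8 and kcnj12b, while S5 lies within or below the wild type range in kcnc1b, kcnj11l and kcnma1b.

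*kcnk6*, the two-pore channel with the highest level per kb (4.22 ± 0.43 CPM per kb in mutant clutches and 3.83 ± 0.36 in wild type clutches, SD, n = 4 each), was at 16.3, 16.0, 17.2 and 19.9 CPM in mutant clutches, against 17.9, 15.1, 15.7 and 14.5 CPM in wild type clutches. *kcnk5b*, a TASK-2 channel whose overactivity makes zebrafish fins overgrow, was at 5.399, 5.03, 6.70 and 5.95 CPM in mutant clutches, against 5.88, 7.46, 5.69 and 6.30 CPM in wild type clutches. Both overlapped between genotypes, with log2 fold changes of 0.14 (95% interval -0.14 to 0.41) and -0.14 (-0.50 to 0.23). The copy *kcnk5a*, named after its values were seen, was at 2.35, 2.18, 4.31 and 3.18 CPM in mutant clutches, against 4.21, 4.38, 3.03 and 3.43 CPM in wild type clutches. S5 here lay with the high wild type clutches, the reverse of its place in most channel genes, and the unadjusted *p* of 0.226 over all clutches ranged from 0.0404 without S5 to 0.461 without S4.

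The calcium- or sodium-activated channels (kcnma, kcnn and kcnt, 11 genes) summed to 73.3, 73.3, 50.5 and 64.6 CPM in mutant clutches, against 48.3, 45.8, 61.6 and 55.7 CPM in wild type clutches. Of these, 9 had a log2 fold change above 0 and 1 had an unadjusted *p* under 0.05 (9.09%, beside 9.41% of all genes tested). That gene was *kcnma1b*, a copy of the BK channel, which opens on calcium and depolarisation together. It was at 1.12, 0.910, 0.405 and 0.547 CPM in mutant clutches, against 0.385, 0.547, 0.125 and 0.264 CPM in wild type clutches. S2 and S4 stood above the rest, while S8 was level with D and S5 lay below it. Mutant over wild type, the log2 fold change was 1.16 ± 0.49 (SE, edgeR unadjusted *p* = 0.0366, adjusted *p* = 0.528). With 1 clutch left out it ranged from 0.89 to 1.54, and the unadjusted *p* was 0.115 without S2, 0.0787 without S4, 0.0525 without A, 0.0874 without G and 0.0779 without L.

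*kcnma1a*, the other BK copy, was at 17.1, 17.5, 9.17 and 12.9 CPM in mutant clutches, against 11.6, 10.6, 10.97 and 9.36 CPM in wild type clutches. S2, S4 and S8 lay above the wild type clutches and S5 below them (log2 fold change 0.41 ± 0.20, unadjusted *p* = 0.0631, from 0.00389 without S5 to 0.181 without S4). *kcnn1a*, a small-conductance calcium-activated channel, had the highest level per kb of its class. It was at 35.6, 34.3, 25.7 and 31.1 CPM in mutant clutches, against 18.6, 19.98, 31.5 and 27.9 CPM in wild type clutches, where A and D were low and G and L within the mutant range (log2 fold change 0.37 ± 0.18, unadjusted *p* = 0.0644, from 0.0155 without G and 0.0348 without S5 to 0.173 without A).

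The sodium-activated Slack channel, which FMRP binds in mammals, has the zebrafish copies *kcnt1a* and *kcnt1b*. *kcnt1b* was at 2.07, 1.94, 0.883 and 1.61 CPM in mutant clutches, against 1.22, 0.979, 1.12 and 1.25 CPM in wild type clutches. *kcnt1a* was at 1.26, 1.12, 0.515 and 0.933 CPM in mutant clutches, against 0.771, 0.432, 0.719 and 0.642 CPM in wild type clutches. In both copies S2, S4 and S8 lay above the wild type range, and S5 lay below all wild type clutches in *kcnt1b* and among them in *kcnt1a*. The log2 fold changes were 0.51 ± 0.30 and 0.59 ± 0.35 (SE, unadjusted edgeR *p* of 0.114 and 0.124, from 0.0138 and 0.0301 without S5 to 0.270 and 0.289 without S2).

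From a list of channels that FMRP is known to act on in rodents, 7 genes were kept (*kcnt1a*, *kcnt1b*, *kcnma1a*, *kcnma1b*, *kcnc1a*, *kcnc1b* and *kcnd2*). All 7 had a log2 fold change above 0, with a median of 0.51. No gene named *kcnmb4*, also listed, was among the genes kept, and the list may leave out other such channels. A log2 fold change above 0 was also found in 75.4% of all potassium channel genes and 53.1% of all genes tested. Of the 7, 2 had an unadjusted *p* under 0.05 (both higher, beside 4.22% of all genes tested) and none an adjusted *p* under 0.05. The list was chosen with earlier results of these data known.

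The auxiliary subunits (kcnab, kcne, kcnip and kcnmb, 15 genes) summed to 35.5, 40.1, 28.9 and 37.9 CPM in mutant clutches, against 29.5, 26.4, 31.2 and 34.3 CPM in wild type clutches. None had an unadjusted *p* under 0.05, and 12 had a log2 fold change above 0. *kcnip1b*, a calcium sensor that joins Kv4 channels, had the highest level per kb, 5.86 ± 0.79 CPM per kb in mutant clutches and 4.73 ± 1.08 in wild type clutches (SD, n = 4 each). It was at 11.9, 13.9, 11.5 and 15.3 CPM in mutant clutches, against 8.74, 8.75, 11.1 and 13.8 CPM in wild type clutches, and L lay within the mutant range (log2 fold change 0.31 ± 0.18, unadjusted *p* = 0.109, from 0.0195 without L to 0.252 without A). The gene named for KCNAB3, a beta subunit of shaker channels, was among the most variable. It was at 1.03, 1.09, 0.147 and 0.418 CPM in mutant clutches, against 0.385, 0.202, 0.281 and 0.453 CPM in wild type clutches, so that S2 and S4 stood above all others and S5 below (log2 fold change 1.05 ± 0.57, unadjusted *p* = 0.0934, from 0.0135 without S5 to 0.255 without S4).

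Levels per kb, which depend on the gene lengths of the deposited table, were spread over many genes. The highest gene made up 4.93% of the summed level per kb of the 126 genes and the highest 10 made up 33.9%. Averages over all clutches were above 1 CPM in 75 genes, above 1 CPM per kb in 38 and below 0.1 CPM in 8. Class medians of the level per kb were 1.31 for inward rectifiers, 0.614 for silent subunits, 0.605 for auxiliary subunits, 0.429 for voltage-gated subunits, 0.387 for calcium- or sodium-activated channels and 0.267 for two-pore channels.

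Zebrafish hold many genes as a and b copies from the genome duplication of teleost fish, and 33 pairs of potassium channel genes had both copies among the genes kept. The a copy was higher per kb in all 8 clutches in 14 pairs, the b copy in 10, and the order changed between clutches in 9. The copies differed more than 5-fold in 6 pairs: *kcnj2* (45.4-fold), *kcnj12* (39.4-fold), *kcnh6* (21.8-fold), *kcnn1* (7.01-fold), *kcna1* (5.85-fold) and *kcnma1* (5.53-fold), named for the size of their gap. The lower copies *kcnj2b*, *kcnj12a* and *kcnh6b* had 19, 12 and 18 counts over all libraries, so these ratios are imprecise. In *kcnj12* the b copy was the higher, at 1.81 ± 0.52 CPM per kb in mutant clutches and 0.928 ± 0.364 in wild type clutches, while *kcnj12a* had 3, 1, 2 and 3 counts in mutant clutches, against 0, 0, 0 and 3 in wild type clutches. In the other 5 pairs the a copy was the higher. Per kb, *kcnc1a* exceeded *kcnc1b* in all clutches, by 1.16 to 2.93 times. The gene lengths used were 6573 bases for *kcnc1a* and 1797 bases for *kcnc1b*. Ratios between copies depend on such lengths, and whether they are complete was not checked. Between genotypes both copies had a log2 fold change above 0 in 22 pairs, both below 0 in 2 and opposite signs in 9. With 75.4% of all potassium channel genes above 0, many pairs would share that sign even if the copies were unrelated.

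**Figure D4:**
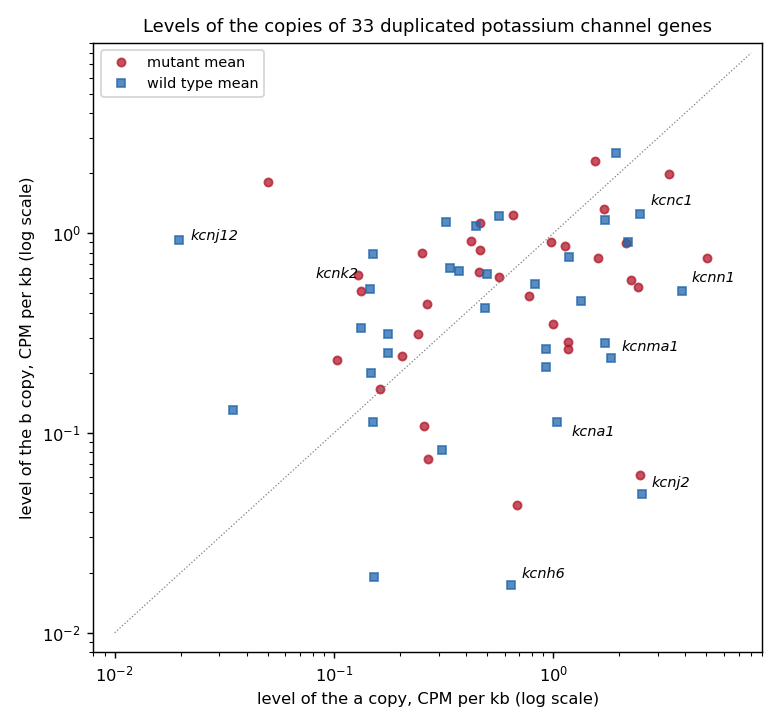
Mean level of the a copy (horizontal) against the b copy (vertical) of 33 duplicated potassium channel genes, in CPM per kb on log scales; red circles are means of 4 mutant clutches, blue squares means of 4 wild type clutches, and the dotted line marks equal levels. Pairs far from the line, such as kcnj12 above it and kcnj2 and kcnh6 below it, keep their side in both genotypes.

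Genes whose products work with potassium channels were also counted. Of 23 partner genes listed, 19 were found and kept, and 3 had an unadjusted *p* under 0.05 (15.8%, beside 9.41% of all genes tested), all higher in mutant clutches (beside 4.22%) and none with an adjusted *p* under 0.05. These were *abcc9*, a sulphonylurea receptor of the ATP-sensitive channel, *cntnap1*, of the contactin-associated proteins of axons, and *lgi3*, of the LGI family of secreted proteins. *abcc9* was at 20.2, 19.6, 13.7 and 18.2 CPM in mutant clutches, against 13.3, 13.9, 14.997 and 15.1 CPM in wild type clutches. *cntnap1* was at 5.46, 5.88, 1.29 and 3.41 CPM in mutant clutches, against 2.22, 1.76, 2.03 and 2.34 CPM in wild type clutches. *lgi3* was at 1.38, 1.24, 0.957 and 1.77 CPM in mutant clutches, against 0.739, 0.806, 0.656 and 0.793 CPM in wild type clutches. S5 was the lowest mutant clutch in all 3 genes, within the wild type range in *abcc9*, below it in *cntnap1* and above it in *lgi3*. The median log2 fold change of the partner genes was 0.19.

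Among 24 genes of sodium-potassium pumps and slc12 cotransporters, 1 had an unadjusted *p* under 0.05 (4.17%, beside 9.41% of all genes tested). *slc12a7b*, a potassium-chloride cotransporter, was at 67.8, 70.6, 68.2 and 87.9 CPM in mutant clutches, against 49.8, 44.0, 59.5 and 67.8 CPM in wild type clutches. S2 exceeded L only narrowly, and the log2 fold change was 0.41 ± 0.15 (SE, edgeR unadjusted *p* = 0.0189, adjusted *p* = 0.528). The hyperpolarisation-activated channels, relatives that also pass sodium, had 6 genes kept and none with an unadjusted *p* under 0.05. Their median log2 fold change was 0.11, beside 0.18 for the pumps and cotransporters.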

How the data were processed

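RNA-seq was done on 8 clutches of whole embryos at 2 dpf. The authors used STAR (2.5.3a) for alignment to GRCz11 and featureCounts (1.5.2, mapping quality of at least 10, by strand) for counting. The deposited table holds raw counts per gene and gene lengths.

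Counts were compared with edgeR (4.0.16) in R (4.3.3), using its quasi-likelihood test after TMM normalisation, with Benjamini-Hochberg adjustment over all 23567 genes whose count exceeded 1 in 4 libraries or more. The study's likelihood-ratio test was an alternative and its conditional quantile normalisation was not applied. Clutches were the replicates. No 2 libraries agreed within sampling noise (chi-square per gene at least 17.3). The fit was tested on simulated data. A prior count of 2 was used for log2 CPM. Reads are not independent molecules.

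Symbols came from a name table. Of 128 channel genes, 44 had a zebrafish symbol there, 75 were named through neighbours in RefSeq (GRCz12tu) and 9 kept a human symbol. By that method 93.0% of 1000 checked names were recovered. Only 4 of the checked names were channel genes, and all 4 were recovered. Most channel names from neighbours, with their copy letters, were therefore not checked.

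Named with values are genes past an unadjusted *p* of 0.05 (up to 12), listed channels that FMRP acts on in rodents, the highest gene per kb of each class, genes with known zebrafish mutants, those on Chromosome 14 and the 2 most variable. The members and lists were chosen with earlier results of these data known. Alternatives were DESeq2 (1.42.0), other normalisations, filters and factors, and leaving out each clutch.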

Additional observations from a re-analysis of the deposited data

Results flagged for a closer look

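Within groups of 4 clutches, 1 clutch lay far from the others in 3 of 46 groups checked, where chance gives about 1 group in 20 (named channel genes in both genotypes, and the summed levels). These were S4 among the mutant clutches in *kcnk4a* (1.001 CPM), A among the wild type clutches in *kcnq1.2* (0.417 CPM), and D among the wild type clutches in *kcnh6a* (3.97 CPM).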

How the results depend on the processing

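No potassium channel gene had an adjusted *p* under 0.05 with any alternative, and the median log2 fold change stayed between 0.18 and 0.40. Of 346 values for single named genes under alternatives, 4 turned in sign, in 2 of 22 genes: *kcnq1.2* (-0.0037 without S4, and 2.37 at most, without A) and *kcnj13* (0.02 without S4, 0.01 without S5, 0.17 without A, and -0.23 at least, without L). The count with an unadjusted *p* under 0.05 was 6 (4.76%, beside 9.41% of all genes tested). It was 9 with the likelihood-ratio test (7.14%, beside 9.43%) and 7 with DESeq2 (5.56%, beside 10.5%). It was 11 with clutches 1 and 2 against 3 and 4 as a factor (8.73%, beside 12.9%). It was 3 of 75 genes kept with a filter on more than 1 CPM (4%, beside 9.47%). That filter removes low genes by construction. It left 2 genes that did not overlap and 3 named genes with an unadjusted *p* under 0.05. With 1 clutch left out, the count with an unadjusted *p* under 0.05 ranged from 4 to 23, and the share of all genes moved too. It was 23 without S5 (18.3%, beside 19.5% of all genes tested). It was 12 without G (9.52%, beside 8.49%) and 4 without S4 (3.17%, beside 6.43%). The count of genes that did not overlap ranged from 5 to 20. It was 20 of 126 without S5, a smaller share than the 19.2% of all genes tested. It was 7 without S8, 8 without G and 9 without L. The share of all genes was counted only for the main comparison (4.28%) and without S5. The other counts therefore cannot be read as a trait of the channel genes. Fewer clutches make non-overlap easier by construction. The count of named genes with an unadjusted *p* under 0.05 ranged from 3 (without S2, where 6.50% of all genes tested passed) to 12 (without S5, where 19.5% passed). Some named genes were chosen for their *p* in these same data, so this count cannot be set against those shares. A replicate block gave 8 genes (6.35%, beside 9.43% of all genes tested), including all 6. Deviations of same-numbered clutches from their genotype means had correlations of 0.25, -0.21, -0.01 and 0.18. These were not compared with those of differently numbered clutches, so they cannot decide whether the numbers pair the clutches. Depth limits the 51 genes under 1 CPM, whose median SE of the log2 fold change was 0.44, beside 0.29 for those at 1 CPM or more.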
